A study of Acromyrmex echinatior with 18 samples.

Results

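A-to-G RNA editing sites in 3′ untranslated regions (3′ UTRs) outside transposable elements were examined in RNA from heads of Acromyrmex echinatior, a fungus-growing leaf-cutting ant. They were taken from the authors' deposited table of 17229 editing sites as those with an A-to-G change whose annotated element included the 3′ UTR and neither coding sequence nor a transposable element. This gave 2084 sites, 12.1% of the table and 12.8% of its 16277 A-to-G sites, in 353 genes on 170 scaffolds of assembly Aech_2.0. A fly ortholog was named for 259 of the genes, and fly names are used below where the table gives them. The 3 female castes were gynes, the virgin females destined for reproduction, and large and small workers, all from the 3 laboratory colonies Ae322, Ae356 and Ae363, written here as A, B and C. Each of the 9 RNA libraries came from heads of a single caste and colony, with 50 heads pooled for gynes or large workers and 200 for small workers, and each of the 9 DNA libraries from the pooled remaining bodies. The RNA libraries were strand-specific, from polyadenylated RNA. The colonies were the replicates (n = 3 per caste), so the spread is that between pools of heads and not between single ants. The table lists edited sites and no expression levels, so the tissue could not be checked against head markers.

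In animals, A-to-G changes between DNA and RNA arise mostly where ADAR enzymes, which bind double-stranded RNA, deaminate adenosine to inosine, which is read as G. Long duplexes formed by inverted repeats can be edited at many adenosines, and untranslated regions and introns are common places for such duplexes. Editing of a 3′ UTR leaves the protein unchanged, and it lies in the part of the messenger RNA where microRNAs and many RNA-binding proteins act.

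Reads over the 2084 sites ranged from 92144 (large workers, colony B) to 203520 (small workers, colony B), and the 3 small worker libraries were the deepest. Every site had 0 edited reads and at least 10 reads in each DNA library. The editing level is the share of reads with the edited base, in percent. Levels were compared at the 1152 sites (55.3%), in 207 genes, with at least 10 RNA reads in all 9 RNA libraries, called measured sites below. The other 932 sites enter the counts per gene and the spacing. Median depth at measured sites was 38 reads in the shallowest of these libraries and 95.5 in the deepest. In pooled heads, a change of editing within a cell type and a change in the share of a transcript that comes from that cell type cannot be told apart.

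Most of these sites were edited in a minority of transcripts. The mean level over the 9 libraries had a median of 8.04% over the 1152 measured sites, with quartiles of 4.25% and 17.5%. It was below 5% at 357 sites (31.0%), from 5% to 20% at 549 (47.7%), from 20% to 50% at 192 (16.7%) and at least 50% at 54 (4.69%). The authors marked 610 of the 2084 sites as edited in all 9 libraries, 1420 in 2 to 8 libraries and 54 in 1 library.

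The highest level was at scaffold 142, position 991323 (plus strand), in the 3′ UTR of TBPH, the fly ortholog of the RNA-binding protein TDP-43. There the level was 90.5%, 97.3% and 100% in gynes of colonies A, B and C, 100% in every large worker library, and 97.6%, 97.7% and 100% in small workers. The castes overlapped, and the lowest depth was 14 reads. In Caps, which encodes a calcium-dependent activator of dense-core vesicle release, the site at scaffold 135, position 1909901 (minus strand) had 98.2%, 97.7% and 100% in gynes, 100%, 88.2% and 100% in large workers and 95.4%, 99.0% and 99.2% in small workers. Both sites were near complete in every caste.

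The Prohormone-2 gene, a neuropeptide precursor, had its highest site (scaffold 501, position 110007) at 83.2% ± 0.87 in gynes, 84.1% ± 6.51 in large and 81.0% ± 2.26 in small workers (mean ± SD, n = 3 per caste, as below). Nep4, a gene of the neprilysin family of metallopeptidases, reached 79.9% over all libraries. The other genes among the 10 with the highest sites were 3 with uncharacterized products (Aech_15319 at 90.4%, Aech_15068 at 87.7% and Aech_17859 at 73.1%), Eap at 78.4%, Eps-15 at 76.2% and the DnaJ-type co-chaperone Droj2 at 73.2%. Among these 10 sites, the Droj2 site alone passed the tests between castes given below.

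The sites lay close together. Of the 2084 sites, 681 (32.7%) had another site of the same gene at the next base, 1497 (71.8%) within 10 bases and 1819 (87.3%) within 50 bases, with a median distance to the nearest of 3 bases. When sites of a gene with gaps of at most 50 bases were joined, 1613 sites (77.4%) fell into 264 runs of at least 3 sites, in 167 genes. The median run held 4 sites over 28 bases. The longest run held 32 sites over 152 bases of Hsc70-4 (scaffold 121, 1686468 to 1686619), a constitutive Hsp70 chaperone. The next, named after their values were seen, had 25 sites over 191 bases of NC2alpha, a subunit of a transcription corepressor, and 23 sites over 189 bases of Mdh1, a malate dehydrogenase.

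The 3′ UTR sites inside transposable elements were spaced alike, with a median distance of 3 bases and 75.3% of 960 sites in runs. Intronic sites outside transposable elements were sparser, with a median distance of 6 bases and 59.3% of 2106 sites in runs. Among intronic sites with at least 10 reads in all libraries the distance was 3 bases and the share in runs 69.8%, beside 79.3% for the 3′ UTR sites measured at the same depth. Positions have no replicates, so these differences carry no test.

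**Figure D1:**
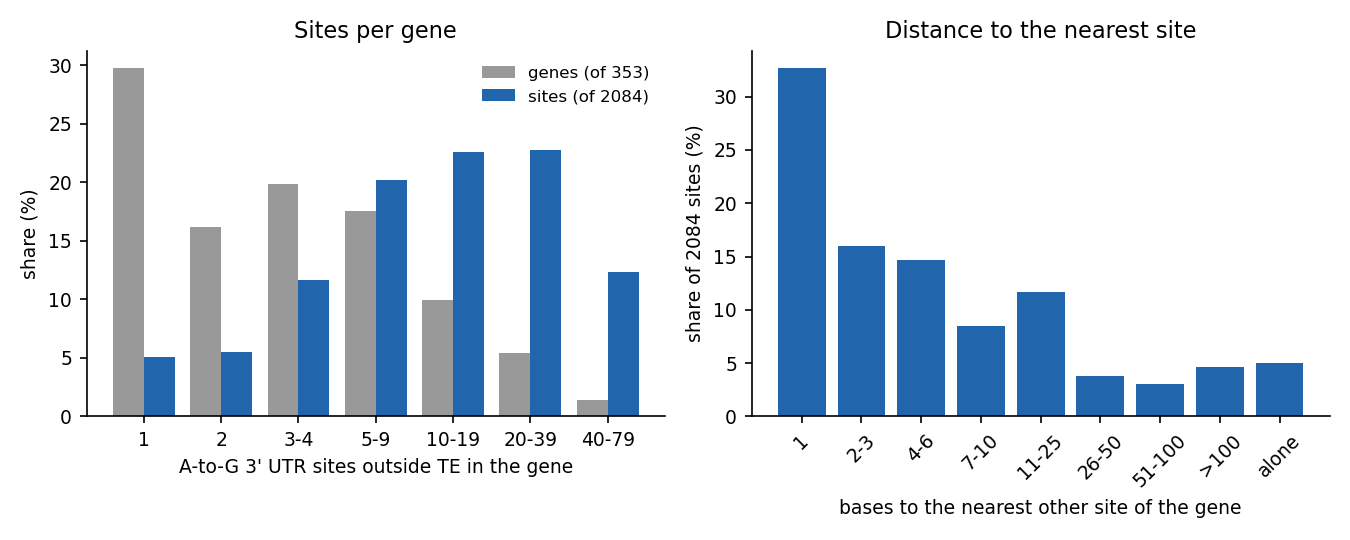
Spacing of 3′ UTR A-to-G sites outside transposable elements, with the share (percent) of genes and of sites by the number of sites in a gene (left), and the share of sites by distance in bases to the nearest other site of the gene (right). Of the 353 genes, 105 held a single site, and 71.8% of the 2084 sites had a neighbour within 10 bases.

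Sites were unevenly spread over genes. The mean was 5.9 sites per gene and the median 3. A single site was found in 105 genes (29.7%), while the 59 genes with at least 10 sites held 1202 sites (57.7%) and the 10 richest genes 411 (19.7%). All sites of a gene lay on the same strand.

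The richest gene was Aech_15068, with an uncharacterized product, with 71 sites over 9912 bases, of which 8 were measured. Hsc70-4 followed with 58 sites over 1286 bases, all of them measured, and Tap42, which encodes a regulatory protein that binds the catalytic subunit of PP2A-type phosphatases, with 45 sites over 840 bases, also all measured. Others among the 10 richest, not all of which are named here, were S6k, a kinase of the TOR growth pathway, with 42 sites and the uncharacterized Aech_03292 with 36. Eps-15, an endocytic adaptor, had 31, and Droj2, the cyclophilin gene Moca-cyp and Eip93F had 29 each. Eip93F is an ecdysone-induced transcription factor, and its honeybee ortholog is known as Mblk-1 from large-type Kenyon cells of the mushroom body.

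Mean levels were lower at lone sites and pairs than in runs. At the 124 measured sites with no neighbour within 50 bases the mean level was 9.43%, and none reached 50%, and at the 96 sites in pairs it was 9.37%. At the 315 sites in runs of 3 to 5 the mean was 14.3% and 13 sites reached 50%. At the 259 sites in runs of 6 to 10 the mean was 14.2%, and at the 358 sites in runs of at least 11 the mean was 16.6% and 27 sites reached 50%. Median depth was 78 reads at the lone sites and 59 in the longest runs.

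Neighbouring sites often had unlike levels. Between 226 pairs of measured sites on adjacent bases the median absolute difference in level was 7.0 percentage points, and 44 pairs differed by over 20 points. Between sites of different genes the median difference was 8.14 points. In the 78 genes with at least 5 measured sites, the lowest and the highest site of a gene differed by a median of 30.1 points, with a range of 2.1 to 95.6. Differences between these genes made up 16.4% of the variance in level.

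The mean level over the 1152 measured sites had the order gynes, large workers, small workers. In gynes it was 12.3%, 11.7% and 11.7% in colonies A, B and C, in large workers 14.4%, 12.9% and 14.0%, and in small workers 16.4%, 16.3% and 16.8%. The 3 castes did not overlap, and the order held in each colony. The means were 11.9% ± 0.307, 13.8% ± 0.769 and 16.5% ± 0.269. Within colonies, small workers exceeded gynes by 4.16, 4.54 and 5.09 percentage points (4.6 ± 0.465), and large workers exceeded gynes by 2.17, 1.2 and 2.3 points (1.89 ± 0.605). Being averages over selected sites, these means are given with no test.

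Depth and the authors' calls moved with caste too. The authors marked between 1260 and 1366 of the 2084 sites in the gyne libraries, 1215 to 1593 in those of large workers and 1665 to 1849 in those of small workers. At the 469 measured sites marked in all 9 libraries, the mean level was 21.5%, 21.2% and 21.3% in gynes, 25.2%, 23.6% and 24.9% in large workers and 27.8%, 27.2% and 28.1% in small workers. The difference between small workers and gynes was thus larger in points at these sites, 6.37, than over all measured sites. These sites also had higher levels, and at higher levels the difference was larger in points and smaller as a ratio, as given below. Large workers of colony B, the shallowest library, still lay above all gyne libraries in both sets.

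**Figure D2:**
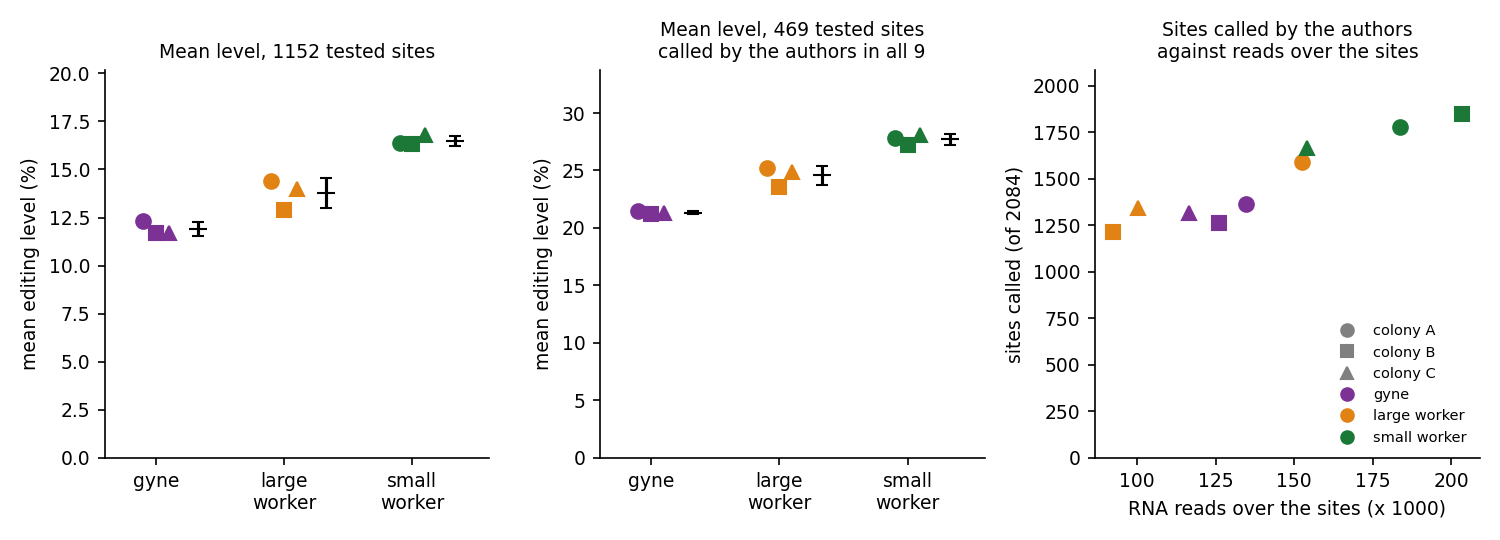
Mean editing level (percent) in each RNA library over the 1152 measured 3′ UTR sites (left) and over the 469 marked in all 9 libraries (middle), with caste means and SD over 3 colonies in black, and the number of sites marked by the authors against RNA reads over the sites (right). Points are libraries. In the left panel gynes lie between 11.7% and 12.3%, large workers between 12.9% and 14.4%, and small workers between 16.3% and 16.8%.

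The mean levels of other classes had the same order. At 3′ UTR sites inside transposable elements they were 13.0%, 15.6% and 18.2% for the castes in the same order, and at intronic sites outside such elements 13.5%, 15.3% and 18.7%. The ratio of small worker to gyne means was 1.39 at the 3′ UTR sites outside transposable elements, 1.4 inside them and 1.39 in introns. These ratios have no test of their difference.

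Site by site, small workers had the higher mean than gynes at 925 of 1152 sites (80.3%, beside 74.6% of all 5720 measured sites of the table). At 3′ UTR sites inside transposable elements this share was 82.8%, and in introns outside them 78.1%. Of the 1152 sites, small workers had the highest level of the 3 castes at 705 (61.2%), large workers at 285 (24.7%) and gynes at 162 (14.1%). Over all measured sites of the table these shares were 54.6%, 29.2% and 16.2%, and at 3′ UTR sites inside transposable elements 62.5%, 26.3% and 11.2%. The order gynes, large workers, small workers was found at 435 sites (37.8%, beside 33.2% of the table) and its reverse at 71 (6.16%, beside 6.29%). No edited read was seen in any gyne library at 55 sites, in any large worker library at 36 and in any small worker library at 4, with the small worker libraries the deepest.

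At 308 sites (26.7%) all 3 small worker levels lay above all 3 gyne levels, beside 22.0% of the sites of the table, and at 20 sites (1.74%, beside 1.61%) all lay below. All 3 small worker libraries lay above the other 6 at 117 sites (10.2%, beside 7.4%) and below them at none (0.227% in the table). All 3 gyne libraries lay below the other 6 at 81 sites (7.03%, beside 5.86%) and above them at 7 (0.608%, beside 0.472%). All 3 large worker libraries lay above the other 6 at 9 sites (0.781%, beside 1.22%) and below them at 12 (1.04%, beside 0.892%).

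The difference grew with the level in points and shrank as a ratio. Below a mean level of 5% small workers exceeded gynes by 2.07 points on average, a ratio of means of 1.91. From 5% to 20% the values were 4.35 points and 1.53, from 20% to 50% 8.66 points and 1.33, and at 50% and above 9.37 points and 1.15. Sites are in the table through the authors' marks, which were most frequent in the small worker libraries, the deepest. At the 178 measured sites marked in 2 to 4 libraries the mean was 2.41% in gynes and 5.47% in small workers. At those marked in all 9 it was 21.3% and 27.7%. Near complete editing the ratio is also bounded. The part of these limits in the pattern was not tested.

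**Figure D3:**
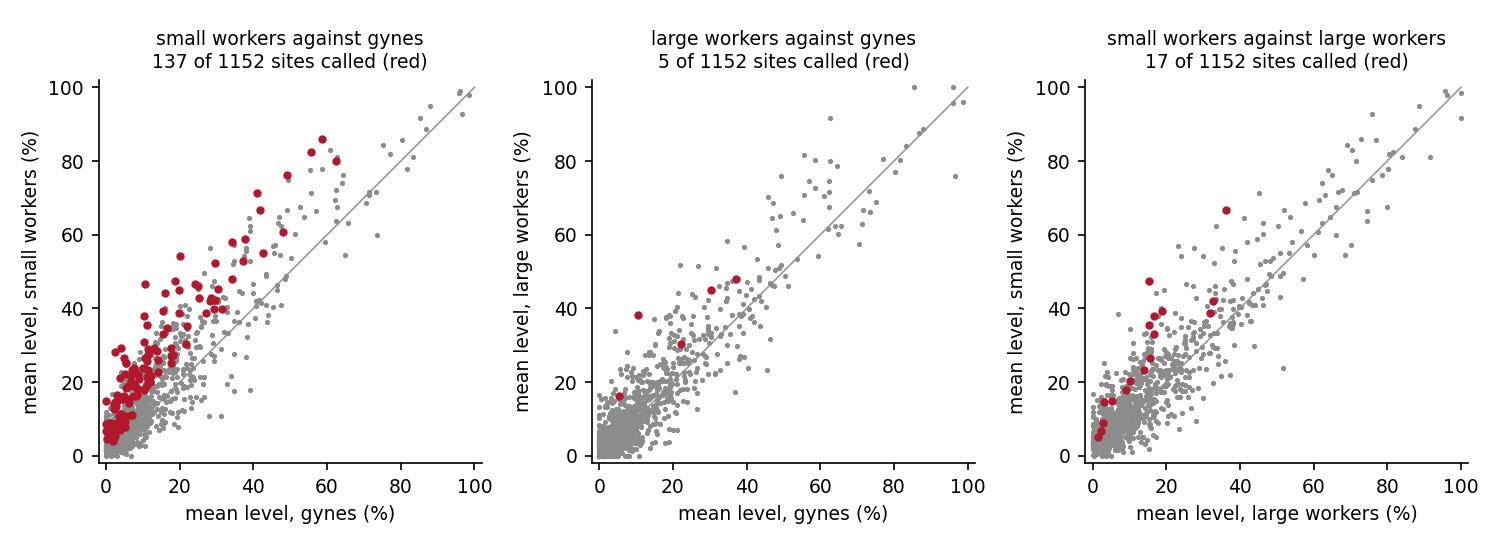
Mean editing level (percent) of each measured 3′ UTR site in a caste against another, for gynes and small workers (left), gynes and large workers (middle) and large and small workers (right). Red points are the 137, 5 and 17 called sites, which all lie above the grey line of equal levels.

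The castes were compared at each site with a quasi-binomial logistic model of edited and unedited reads, in which the spread between colonies was a single dispersion shared by all sites, and p-values were adjusted over the 5720 measured sites of the whole table. Between gynes and small workers, 137 of the 1152 sites (11.9%) were called at an adjusted p of 0.05, beside 8.23% of all measured sites. Among 3′ UTR sites inside transposable elements the share was nearly the same, 11.2%, and in introns outside them it was 8.72%. All 137 were higher in small workers, beside 8.09% of all measured sites called higher and 0.14% called lower. They differed by 2.28 to 36.2 points with a median of 11.5. They lay in 54 genes, and at 124 of them the 3 gyne and 3 small worker levels did not overlap. The sites were called on these same levels, so the lack of overlap is no separate support. Over the 3 castes together 103 sites (8.94%, beside 6.38%) were called.

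These calls rest on the shared dispersion. With the colony as a block, with each site's own dispersion, or with limma on arcsine-square-root levels, 0 of the 1152 sites were called between any castes, while 251 (21.8%, block) and 215 (18.7%, limma) had an unadjusted p under 0.05 between gynes and small workers, against 321 (27.9%) in the model with shared dispersion. Over all measured sites of the table these shares were 17.5%, 16.1% and 22.3%. Of the 137 called sites, 96 (70.1%) also had an unadjusted p under 0.05 in both the blocked fit and limma, beside 361 of the 471 called sites of the whole table (76.6%). As shares of measured sites these were 8.33% and 6.31%. Leaving out small workers of colony A or C left 13 called sites (1.13%, beside 0.944% and 0.909% of all measured sites). Relative to the overall level of each library, 22 sites were called (1.91%, near the 1.66% of all), 17 higher and 5 lower in small workers.

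Depth moved with the calls. Called sites made up 3.2% of the 3′ UTR sites with a mean of 10 to 30 reads, 3.4% with 30 to 60, 11.7% with 60 to 120 and 27.8% above that. For all other measured sites the shares were 3.46%, 3.65%, 7.42% and 18.5%. Below 60 reads the shares were thus close, and above it they were larger for the 3′ UTR sites. Split by mean level, the shares of 3′ UTR sites were 5.88% below 5%, 13.7% from 5% to 20%, 17.7% from 20% to 50% and 13.0% above. For all other measured sites they were 2.11%, 6.75%, 16.4% and 22.8%. At levels of at least 50% the share was thus smaller for the 3′ UTR sites. No test of these differences was made.

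The largest rise was in CG11665, a gene of the monocarboxylate transporter family, at scaffold 544, position 82764 (minus strand). The level was 12.7%, 12.2% and 6.5% in gynes, 41.7%, 21.1% and 51.7% in large workers and 51.0%, 42.1% and 46.9% in small workers. Every worker library lay above every gyne library, while large and small workers overlapped. The rise from gynes to small workers was 36.2 points (adjusted p = 2.43e-08) and that from gynes to large workers 27.7 points (adjusted p = 0.00103).

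CG5515, which encodes a protein with an RWD domain, rose at scaffold 340, position 3150 (minus strand). Gynes had 8.97%, 13.5% and 10.5%, large workers 15.0%, 18.4% and 12.3%, and small workers 36.5%, 34.7% and 34.8%. Gynes and large workers overlapped, and both lay below all small worker libraries, with adjusted p = 3.8e-05 for gynes and 0.00996 for large workers against small workers. At position 3063 of the same 3′ UTR gynes had 9.78%, 3.2% and 3.16%, large workers 16.6%, 15.6% and 16.5% and small workers 29.3%, 25.2% and 21.2%. Here no castes overlapped.

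ATPsyn-gamma, a subunit of the mitochondrial ATP synthase, had 10.6%, 12.1% and 8.26% in gynes at scaffold 244, position 2329626 (plus strand), 19.3%, 12.9% and 17.5% in large workers and 28.6%, 41.1% and 44.4% in small workers. The 3 castes did not overlap. The rise of 27.7 points from gynes to small workers had an adjusted p of 6.93e-06, and that of 21.5 points from large to small workers 0.0259.

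Nup98-96, which encodes components of the nuclear pore, had 14.9%, 12.8% and 20.4% in gynes at scaffold 448, position 70357, 41.8%, 19.5% and 38.5% in large workers and 40.8%, 45.7% and 45.8% in small workers. Small workers were above gynes by 28.1 points (adjusted p = 3.19e-05), and large workers of colony B lay within the range of gynes. CG3356, an E3 ubiquitin ligase, rose at scaffold 546, position 109321 from 53.3%, 42.4% and 51.2% in gynes to 71.9%, 78.2% and 78.7% in small workers, with 70.0%, 55.6% and 69.4% in large workers. No castes overlapped there.

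In CG5214, a subunit of the 2-oxoglutarate dehydrogenase complex, the site at scaffold 1054, position 101976 had 7.82%, 9.28% and 13.6% in gynes, 19.3%, 13.0% and 11.8% in large workers and 29.1%, 31.9% and 31.5% in small workers. Small workers lay 20.6 points above gynes (adjusted p = 0.000285), and large workers overlapped with gynes. The gene Aech_00204, annotated as a cytochrome P450, at scaffold 121, position 2639178, had 1.87%, 7.22% and 7.5% in gynes, 20.2%, 34.8% and 15.8% in large workers and 27.8%, 25.0% and 22.5% in small workers. There both worker castes lay above gynes.

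The potassium channel gene CG34396 had 8.78% ± 0.62 in gynes, 10.5% ± 1.71 in large and 22.0% ± 3.37 in small workers at scaffold 686, position 314339. The uncharacterized Aech_07791 had 6.69% ± 1.79, 15.5% ± 2.62 and 20.2% ± 4.05. Small p-values in all 3 fits (shared dispersion, blocked and limma) chose these sites, CG5515 at position 3063 among them, and also a site of Aech_11399, which encodes an SH3 and cysteine-rich domain protein. Its levels were 2.27%, 0.0% and 5.0% in gynes, 17.8%, 19.0% and 7.14% in large workers and 21.9%, 42.3% and 20% in small workers, where the 0 of 18 reads in gynes of colony B allows a level of up to 16.7%. Such limits cover counting error only.

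Of the other large rises from gynes to small workers, the following were also called. S6k rose from 20.1% ± 15.5 to 54.3% ± 8.54 at a lowest depth of 11 reads, CG11590, a CutA-like protein, from 41.1% ± 7.79 to 71.3% ± 6.92, and Tap42 from 18.8% ± 8.2 to 47.5% ± 7.28. Moca-cyp rose from 58.6% ± 12.6 to 85.9% ± 1.06 and Droj2 from 55.5% ± 8.74 to 82.5% ± 2.38. HBS1, a GTPase that in yeast rescues stalled ribosomes, rose from 4.17% ± 4.17 to 29.2% ± 6.39, with 0 of 32 reads in gynes of colony B, which allows up to 9.38%. Cdk9, a kinase of transcription elongation, rose from 41.9% ± 5.25 to 66.7% ± 5.45, nuf, a Rab11 effector, from 15.5% ± 3.98 to 39.4% ± 8.52, and the RNA helicase gene abs from 29.5% ± 3.45 to 52.4% ± 7.51. The nuf site had an own dispersion of 6.34, and its unadjusted p was 0.0577 in the blocked fit and 0.0215 in limma. Moca-cyp alone among these sites was also called relative to the overall level of each library (adjusted p = 0.0475). In that fit the CG3356, CG34396 and Aech_07791 sites above were not called either (adjusted p = 0.17, 0.227 and 0.125).

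**Figure D4:**
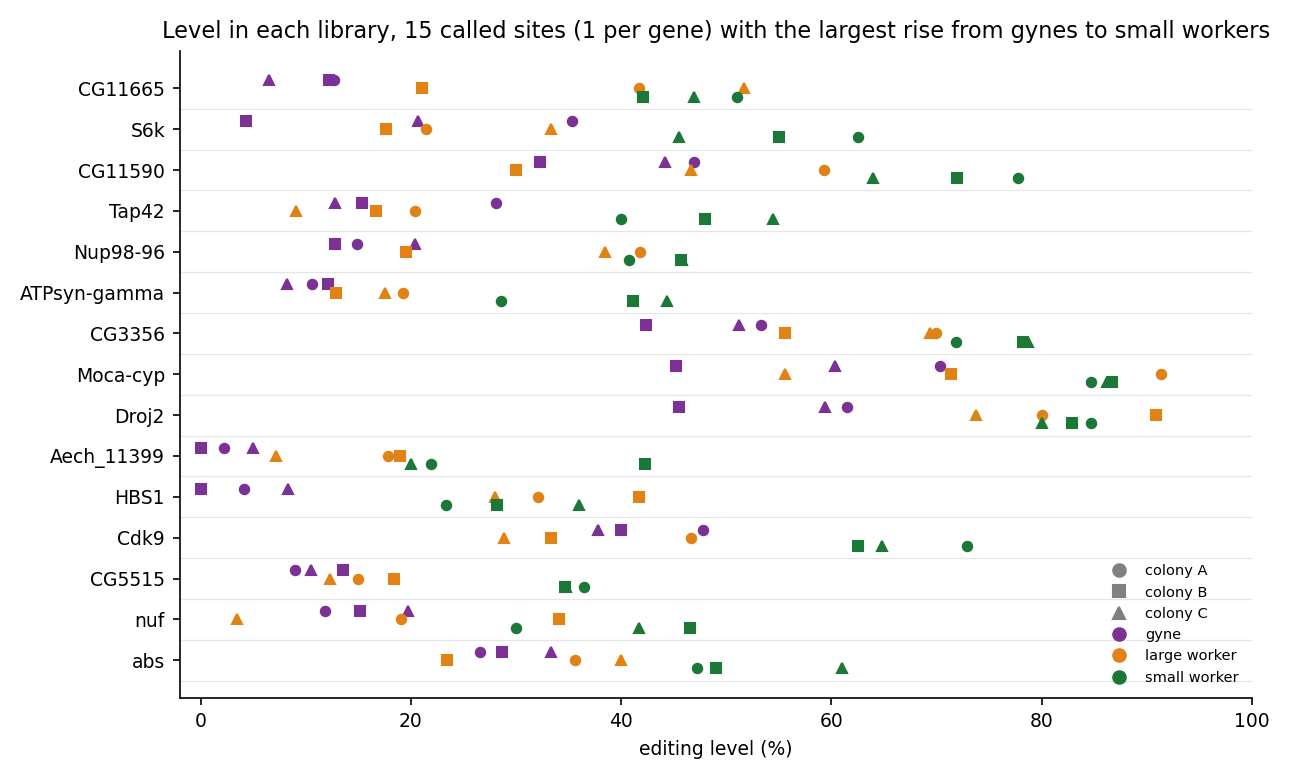
Editing level (percent) in each RNA library at 15 called 3′ UTR sites, 1 per gene, with the largest rise from gynes to small workers. Each point is a library. At every site shown all small worker points lie above all gyne points, which the choice of sites required. The rise runs from 36.2 points in CG11665 to 22.9 in abs.

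Between gynes and large workers 5 sites were called (0.434%, beside 0.472% of all measured sites), each in another gene. All 5 were higher in large workers, beside 0.437% called higher and 0.035% called lower. Beside CG11665 and position 3063 of CG5515, these were in VhaSFD, a subunit of the vacuolar proton pump, in pUf68, a splicing factor, and in Hsc70-4. VhaSFD had 27.6%, 26.4% and 37.1% in gynes, 46.3%, 42.9% and 45.6% in large workers and 42.4%, 50.3% and 42.8% in small workers. pUf68 had 38.8%, 36.5% and 36.1% in gynes, 49.7%, 45.4% and 49.3% in large workers and 50.8%, 47.2% and 60.3% in small workers. In both genes the workers overlapped with each other and lay above gynes. No gyne and large worker levels overlapped at the 5 sites, which were called on these same levels, and leaving out any library left 0 calls. Of the 5, 3 also had an unadjusted p under 0.05 in both the blocked fit and limma. The pUf68 and Hsc70-4 sites did not, with unadjusted p = 0.0623 and 0.102 in limma.

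Between large and small workers 17 sites in 9 genes were called (1.48%, beside 0.874%). All were higher in small workers, by a median of 10.1 points, beside 0.857% called higher and 0.0175% called lower. In Tap42 the site at scaffold 185, position 233662 had 28.1%, 15.4% and 12.8% in gynes, 20.4%, 16.7% and 9.09% in large workers and 40.0%, 48.0% and 54.5% in small workers. In Cdk9, at scaffold 141, position 394001, gynes had 47.8%, 40.0% and 37.8%, large workers 46.7%, 33.3% and 28.9% and small workers 72.9%, 62.5% and 64.8%. At both sites gynes and large workers overlapped and small workers stood above both. The immunoglobulin-superfamily adhesion gene tutl had 11.6% ± 1.67, 10.1% ± 0.683 and 20.2% ± 1.37 in the 3 castes in the same order, and nuf at position 433498 had 11.3% ± 2.25, 13.9% ± 0.597 and 23.3% ± 1.86. Of the 17 sites, 13 also had an unadjusted p under 0.05 in both the blocked fit and limma. Leaving out any library left 0 calls here too.

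The sites of a gene were also averaged with equal weight, which gives each gene a single level per library. By limma's moderated test on arcsine-square-root levels, 7 of 207 genes were called between gynes and small workers. This was 3.38%, beside 1.51% of the 797 gene units of the table. All 7 were higher in small workers. Pxd, a peroxidase, had 6.4%, 3.53% and 2.21% over 3 sites in gynes, 9.52%, 8.66% and 7.72% in large workers and 17.4%, 16.1% and 20.1% in small workers (adjusted p = 0.0227). CG5515 had 5.01%, 3.65% and 3.41% over 14 sites in gynes, 9.1%, 6.76% and 6.45% in large workers and 14.6%, 13.7% and 16.2% in small workers (adjusted p = 0.023). In both genes the 3 castes did not overlap.

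ATPsyn-gamma rose from 4.46% ± 0.834 in gynes to 17.1% ± 2.77 in small workers, CG11665 from 2.8% ± 1.8 to 12.7% ± 1.12, CG5214 from 4.26% ± 0.305 to 14.0% ± 1.65 and HBS1 from 2.91% ± 2.47 to 16.7% ± 3.75. In CG11665 and HBS1 the large workers, at 11.3% ± 1.58 and 18.5% ± 3.91, overlapped with small workers. Ip259, a ribosome biogenesis gene, had 0.0%, 3.38% and 0.0% in gynes, from 0 of 37, 5 of 103 and 0 of 29 reads over 2 sites. The counts of 0 allow up to 8.11% and 10.3%. It had no edited read in large workers, where 0 of 29, 47 and 24 reads allow up to 10.3%, 6.38% and 12.5%. Its small worker levels, 8.0%, 12.1% and 15.3% as means over the 2 sites, rest on few edited reads, 4 of 41, 13 of 107 and 4 of 41. With the colony as a block 0 genes were called, and without gynes of colony C also 0. Over the 3 castes, and between large workers and either other caste, 0 genes were called (0.0% of gene units), with 57 (27.5%), 24 (gynes, 11.6%) and 36 (small workers, 17.4%) at an unadjusted p under 0.05 in limma. Over all gene units these shares were 16.3%, 8.28% and 11.4%. Among gene units with at least 3 tested sites, 35.3% of the 3′ UTR genes were called between gynes and small workers, beside 38.3% of all such units.

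Gene groups were formed from words in the protein names and are described by counts. Over all 207 measured genes, small workers had the higher mean at 176 (85.0%), with a median difference of 3.86 points. Chaperones held the largest share of called sites, 28 of 84 (33.3%), beside 11.9% of all 3′ UTR sites. They were 20 of 58 in Hsc70-4, 6 of 13 in Hsp83, the fly Hsp90, and 2 of 11 in Droj2. The 20 in Hsc70-4 lie in a gene with a median of 272 reads per site, beside 62 over all measured sites, so the part of depth in this share was not tested.

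Genes matched by words for energy metabolism had the larger small worker mean in 13 of 13, with a median difference of 8.19 points and 15 of 88 sites called (17.0%). The words also take in cytochrome P450, glutamine synthetase and saccharopine dehydrogenase, so these values describe the word match. Among the matched genes CG5167, a putative saccharopine dehydrogenase, had 11.2% ± 1.6 in gynes and 22.0% ± 9.02 in small workers. Gs1, a glutamine synthetase, had 5.22% ± 1.49 and 9.09% ± 2.92, and Mdh1 13.4% ± 1.22 and 14.9% ± 0.938. SdhA, the flavoprotein of succinate dehydrogenase, named after its values were seen, had 3 of 10 sites called. Membrane transport genes had 7 of 41 sites called, 5 of them in CG11665, with the higher small worker mean in 6 of 9 genes. The potassium channel gene Shaw had 18.1% ± 2.94 in gynes, 25.8% ± 6.17 in large and 17.0% ± 4.88 in small workers, and the amino acid transporter gene CG13248 6.6% ± 1.05, 6.99% ± 2.82 and 7.68% ± 1.09.

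Kinases and phosphatases had the higher small worker mean in 15 of 16 genes and 5 of 87 sites called (5.75%). S6k had 17.7% ± 3.33, 14.6% ± 3.64 and 26.3% ± 0.717 over its 16 measured sites in the order gynes, large workers, small workers, and the JNK gene bsk 8.08% ± 2.2, 9.52% ± 2.01 and 12.0% ± 0.289. IA-2, a receptor-type phosphatase homolog of dense-core vesicles, had 19 sites, of which the 1 measured had 3.81% ± 2.79 in gynes and 4.15% ± 1.88 in small workers. RNA-binding and splicing genes had 6 of 47 sites called (12.8%, near the 11.9% of all 3′ UTR sites), 5 of them in pUf68 and 1 in abs. Aech_12988, with an RNA-binding domain by name, had 6.01% ± 2.4 in gynes and 9.87% ± 2.78 in small workers, and in Eap large workers had the highest mean, 24.4% ± 0.908, beside 17.8% ± 2.58 in gynes and 22.2% ± 1.87 in small workers. The word match for translation also caught S6k and the transcription elongation factor TfIIS. It held 5 genes, all with the higher small worker mean, and 5 of 31 sites called, 4 of them in EfTuM, the mitochondrial elongation factor Tu, at 7.4% ± 1.23, 11.3% ± 3.23 and 11.9% ± 1.04.

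Genes matched by words for transcription and chromatin had the higher small worker mean in 8 of 9 genes and 0 of 37 sites called. The match goes by protein names and missed Eip93F, which had 7 of 24 sites called, all higher in small workers, with gene means of 10.2%, 9.91% and 11.1% in gynes, 16.2%, 10.1% and 15.5% in large workers and 14.3%, 15.4% and 13.0% in small workers. Within the matched genes, Aech_09695, annotated as a paired homeobox protein, had 18.6% ± 7.09 in gynes and 28.8% ± 3.31 in small workers, the histone gene Aech_13673 8.58% ± 2.24 and 10.9% ± 3.33, and the zinc finger gene crol 15.3% ± 3.76 and 19.7% ± 1.52. Ubiquitin and protein turnover genes had 1 of 14 sites called, the one in CG3356. REG, a proteasome activator subunit, and the aminopeptidase gene CG40470, with 7 and 6 sites, had none measured. Vesicle and synapse genes, as matched, had the smallest median difference of the groups, 0.8 points, with the higher small worker mean in 4 of 6 genes and 1 of 40 sites called (2.5%). This match missed the Rab11 effector nuf, which had 5 of 8 sites called and a mean difference of 8.96 points. It also missed Grip, which had a mean difference of -2.33 points and no called site. Caps had 30.3% ± 0.252, 28.4% ± 2.45 and 29.1% ± 0.726, and Nsf2, which disassembles SNARE complexes, 7.84% ± 1.29, 6.65% ± 1.32 and 9.24% ± 1.39. The synaptobrevin gene n-syb, with 1 called site, had 9.0% ± 1.27, 15.5% ± 6.26 and 13.2% ± 1.33.

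Within some single 3′ UTRs small workers had the higher mean than gynes at most sites. Over all measured 3′ UTR sites this share was 80.3%. The median distance to the nearest site was 3 bases, so a read of 90 bases can cover several sites. All sites were also read in the same libraries. Counts of sites within a gene are therefore not counts of separate observations, and they carry no test. In Hsc70-4 small workers had the higher mean at 50 of 58 sites, with gene means of 11.1%, 11.9% and 11.6% in gynes, 13.9%, 13.6% and 14.0% in large workers and 16.9%, 15.3% and 16.7% in small workers. The 3 castes did not overlap. Its site at position 1686528 had 20.9%, 23.2% and 22.3% in gynes, 33.1%, 29.5% and 27.9% in large workers and 40.3%, 30.5% and 34.7% in small workers. At position 1686770 of the same 3′ UTR the level was between 2.75% and 5.71% in all libraries, the narrowest range of the sites marked in all libraries.

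In Tap42 small workers had the higher mean at 42 of 45 sites. The gene mean was 13.6%, 10.6% and 8.83% in gynes, 12.3%, 11.0% and 12.2% in large workers and 18.4%, 20.1% and 18.5% in small workers. Gynes and large workers overlapped and small workers stood above both. In CG5515 small workers had the higher mean at 14 of 14 sites, with 9 called. In Caps they had the higher mean at 7 of 19 sites and none was called.

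**Figure D5:**
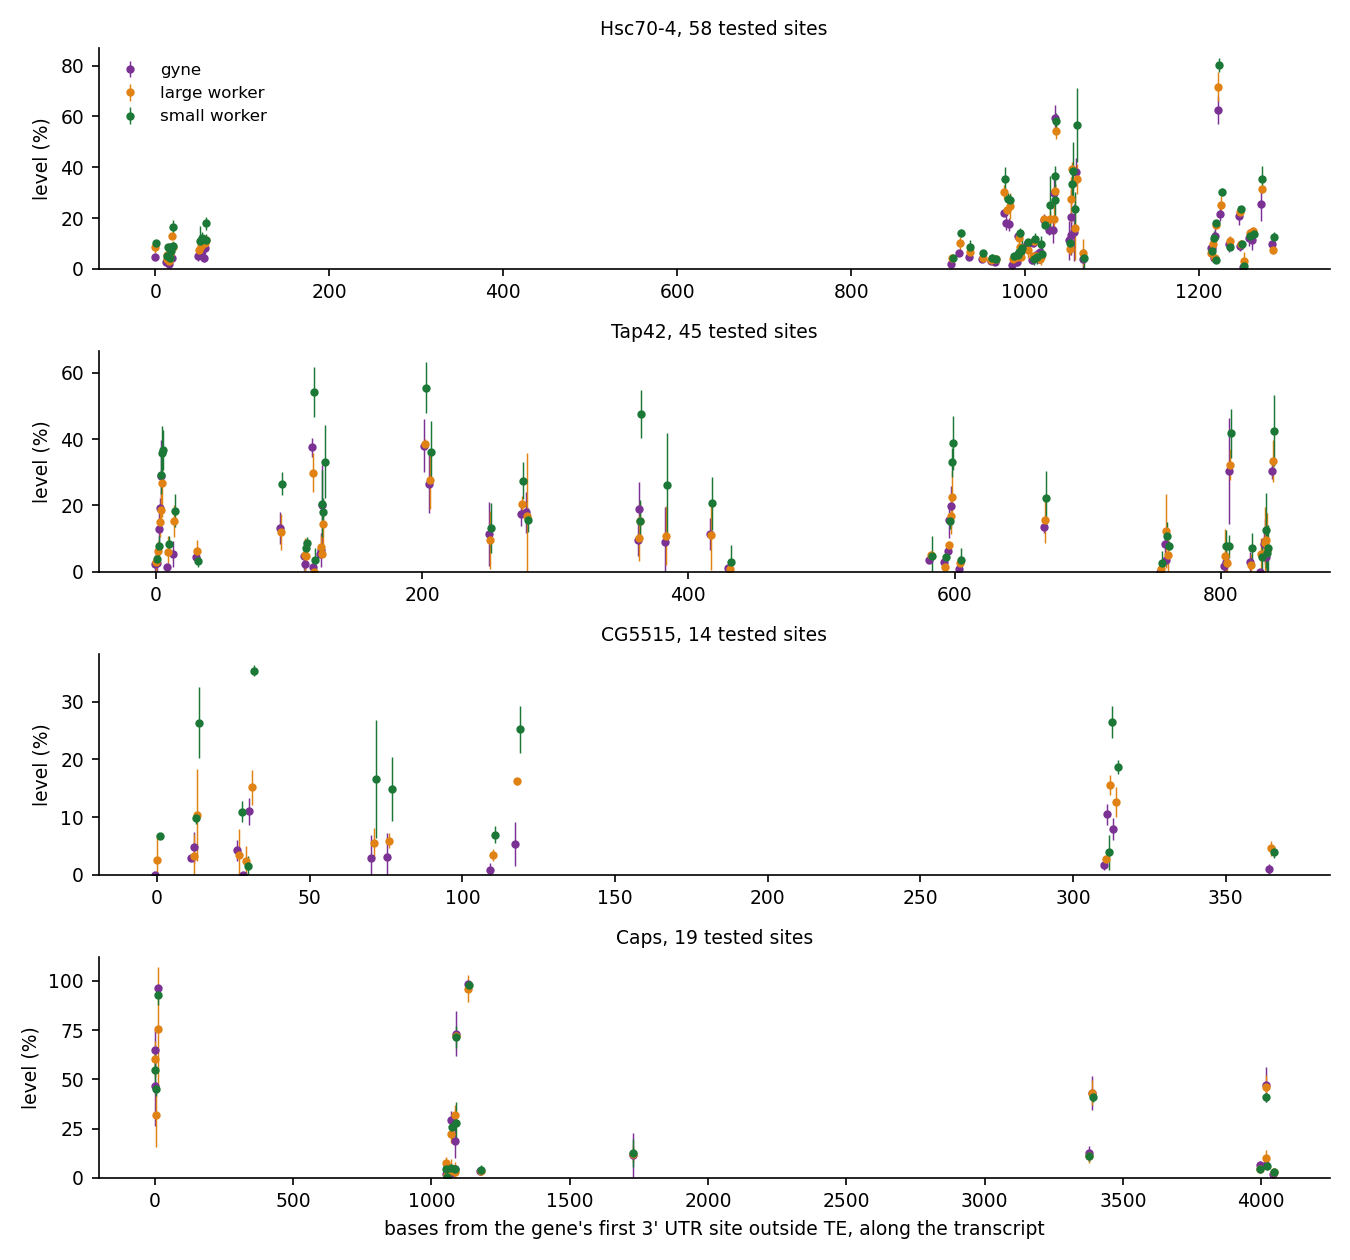
Mean editing level (percent) of each measured site along the 3′ UTRs of Hsc70-4, Tap42, CG5515 and Caps, by caste, against the distance in bases from the first site in the direction of transcription. In CG5515 the small worker points are above the gyne points at all 14 sites, and in Caps at 7 of 19.

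Of the 78 genes with at least 5 measured sites, 73 had the higher small worker mean at most of their sites and 23 at all of them, while 4 had the lower mean at most: Grip, Aech_16950, Aech_06113 and Caps. These genes were named after their values were seen. Grip, a scaffold protein of glutamate receptors, had the lower small worker mean at 9 of 17 sites. Its gene mean was 24.2%, 25.0% and 23.3% in gynes, 21.3%, 18.4% and 25.4% in large workers and 23.4%, 25.0% and 17.1% in small workers. All 3 castes overlapped, and none of its sites was called.

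The sites with the widest range over libraries varied within castes. In CG34384, a diacylglycerol kinase, the site at scaffold 501, position 19644 had 41.2%, 10.0% and 90.0% in gynes, 71.4%, 80.0% and 54.2% in large workers and 45.1%, 55.6% and 62.8% in small workers, at a lowest depth of 10 reads. In Msp-300, a nesprin that links nuclei to the cytoskeleton, gynes had 50.0%, 68.0% and 22.6%, large workers 55.6%, 53.1% and 84.6% and small workers 67.3%, 78.6% and 48.6%. At both sites the 3 castes overlapped. At position 2639175 of Aech_00204 the spread came from large workers of colony B, at 80.0%, above the 13.5% to 38.2% of the other libraries. By contrast, the sites of Mdh1 at position 185474 and of CG1516, a pyruvate carboxylase, at position 513110 stayed between 3.04% and 6.04% and between 3.53% and 6.96%.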

How the data were processed

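The authors deposited a table of editing sites with packed cells, a unit recorded as other. Per the file headers, each cell holds counts of reference and edited reads for DNA and RNA of a sample, and it is marked if the site counted as edited there for the authors. BWA 0.5.9-r16 is named in the submitters' processing notes, and rules for calling sites are not given in sources used here. Coordinates are those of assembly Aech_2.0 in the table. The cells were unpacked, and levels, spacing and tests computed, with Python 3.11.15, pandas 2.3.3 and NumPy 2.4.6. Plots were drawn with matplotlib 3.10.9.

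The 5720 sites of the table that reached 10 RNA reads in each of 9 RNA libraries were tested in R 4.3.3 by quasi-binomial logistic regression. The Pearson dispersion was moderated with squeezeVar of limma 3.58.1, kept at 1 or above, and gave 1 shared dispersion of 1.88. F tests were adjusted by Benjamini-Hochberg over all 5720 sites. Own dispersions exceeded 1.88 at 458 of 1152 sites. Genes were tested with limma. The site tests were run on simulated data with 200 changed sites and 1 setting of the extra spread for all sites. The simulation therefore could not check the use of a shared dispersion where the spread differs between sites. The quasi-binomial test recovered 16% of sites changed by 1 in log odds and 68% of those changed by 2. limma on site levels recovered 8% and 60%.

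The members and lists were chosen with earlier results of these data known. Sites were named by rule: the 10 richest genes, the 10 highest sites, the largest non-overlapping called differences (15 for gynes against small workers, 6 otherwise, 1 per gene), the 10 called sites with the smallest p-values across 3 fits, called genes, up to 3 genes per word list, and the 3 widest and 3 narrowest sites. Colony letters pair the samples by label. Deviations of libraries of the same colony correlated with r from -0.123 to 0.0876 (median 0.00191), and of different colonies with r from -0.141 to 0.109. Replicates differed by more than counting noise (chi-square per degree of freedom 1.71 to 2.17 in 9 pairs). Base context was not analysed here, and 1 gene that the rule names is not reported here. Reads carry no molecular identifiers.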

Additional observations from a re-analysis of the deposited data

Results flagged for a closer look

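The table also holds 132 sites in 3′ UTRs outside transposable elements with a change other than A-to-G, which enter above only within the whole table. They were flagged because they were not described above. Like every site of the table, they had 0 edited reads in the DNA libraries. Their mean level was 2.87% over 103 measured sites in the 9 RNA libraries, and 73 of the 132 were G-to-A changes. The mean was 2.77%, 3.07% and 2.19% in gynes of colonies A, B and C, 3.09%, 3.42% and 2.54% in large workers and 2.8%, 3.02% and 2.9% in small workers, so the castes overlapped. Only 18 of these sites (13.6%) had another within 50 bases, beside 87.3% of the A-to-G sites.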

How the results depend on the processing

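The direction of the mean levels held under every alternative that was run. The difference between small workers and gynes was 3.61 points as a median over sites, 5.28 from summed reads and 6.37 at sites marked in all 9 libraries, where large workers exceeded gynes by 3.22 points. Leaving out single libraries gave 4.45 to 4.77, 1.57 to 2.32 (large workers against gynes) and 2.28 to 3.02 points (small against large workers). Site calls depended on how the spread was estimated. The replicate block, limma on arcsine-square-root levels, limma with the replicate block and each site's own dispersion (the last 2 chosen after seeing the data) gave 0 called sites in all comparisons. Relative to the overall level of each library, 18 sites were called over the 3 castes (1.56%, beside 1.24% of all measured sites). For gynes against small workers 22 were called (1.91%, beside 1.66%), and for gynes against large workers 1 (0.0868%, beside 0.105%). For large against small workers 2 were called (0.174%, beside 0.122%). squeezeVar with robust trend gave 2 for gynes against large workers (0.174%, beside 0.175%). Leaving out single libraries gave 0 to 18, 13 to 66, 0 to 0 and 0 to 0 in the same order. The counts of 18 and 66 were 1.56% and 5.73%, beside 1.01% and 3.83% of all measured sites. With all 9 libraries the prior degrees of freedom were infinite, and with the block 0.903. For genes, gynes against small workers gave 3 calls at a coverage minimum of 5 reads (1.19%, beside 0.769% of all units). At 20 reads they gave 11 (7.19%, beside 4.33%), and with the replicate block 0. With at least 3 tested sites per gene they gave 42 (35.3%, beside 38.3% of all units), and relative to the library mean 0 (beside 0.125%). Over the 3 castes there were 3 at 20 reads (1.96%, beside 0.722%) and 31 with at least 3 sites (26.1%, beside 26.1%). Leaving out libraries gave 0 to 19 and 0 to 7. The counts of 19 and 7 were 9.18% and 3.38%, beside 5.52% and 1.63% of all units. The cause of these changes was not tested.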

Other observations

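Among the 78 genes with at least 5 measured sites, the 5 with the lowest mean difference between small workers and gynes, named here after their values were seen, were CG42450, Grip, Aech_16950, Aech_06113 and Caps. The small worker minus gyne difference was -2.97 points in CG42450, a regulator of G-protein signalling of the RGS7 type, -2.33 points in Grip, -1.94 points in Aech_16950, annotated as a muscarinic acetylcholine receptor, -1.44 points in the uncharacterized Aech_06113 and -1.23 points in Caps. Levels in Aech_16950 were 15.2%, 14.0% and 10.5% in gynes, 12.3%, 17.9% and 14.4% in large workers and 11.8%, 8.32% and 13.7% in small workers, so the castes overlapped. None of the sites of these 5 genes was called in any comparison. The list is not set by function, and genes of the synapse and of ion channels also lay on the other side, with differences of 4.21 points in n-syb and 4.13 points in CG34396.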
